A study of Mus musculus with 12 samples.

Results

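The aryl hydrocarbon receptor (AHR) pathway was followed through 8 genes in livers of C57BL/6 mice from Taconic and Jackson. The genes are the receptor Ahr, its partner Arnt, its repressor Ahrr, the cytochrome P450 genes Cyp1a1, Cyp1a2 and Cyp1b1, the ADP-ribosyltransferase gene Tiparp and the aldehyde dehydrogenase gene Aldh3a1. They were chosen by name as known parts of the pathway, by a rule that sets no threshold on measured values, but with earlier results of these data known. All 8 were found among the 23909 named genes of the deposited table. The 12 libraries formed 4 groups of 3. CoTAC livers came from Taconic mice caged with Jackson mice for 4 weeks, and CoJAX livers from the Jackson mice caged with Taconic mice over the same time. TAC livers and JAX livers came from mice caged with others of their own vendor. The series asks how differing gut microbes affect the expression of genes in the liver. All mice are labelled C57BL/6, with no substrain, sex, age or cage given. The labels do not tie the libraries to single animals, and the spread behind each p-value is that between libraries, part of which may be technical.

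AHR is a transcription factor that rests in the cytosol, held by HSP90, until a ligand binds. It then enters the nucleus, pairs with ARNT and binds DNA at short elements with the core GCGTG. Its ligands include dioxins, plant indoles, products of tryptophan made by gut bacteria, and kynurenine made by the host. In liver the pathway is known for raising Cyp1a1 and Cyp1a2, and AHRR and TIPARP are made in response and dampen the receptor.

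The table holds RPKM, reads per kilobase of gene scaled to the mapped reads of the library. Depth was read from the steps between its lowest values and came to an estimated 1560000 to 3860000 reads per library. The CoTAC libraries held 3270000 to 3780000, the CoJAX libraries 2240000 to 3860000, the TAC libraries 1630000 to 3600000 and the JAX libraries 1560000 to 2050000, so depth went with the groups. All 7 hepatocyte markers were present, with a summed level of 2360 to 2800 RPKM in CoTAC, 2460 to 3790 RPKM in CoJAX, 2600 to 4740 RPKM in TAC and 3700 to 4610 RPKM in JAX. Differences below are on the scale log2(RPKM + 0.5) ± SE, from 1 limma-trend model over the 4 groups, with p-values adjusted by Benjamini-Hochberg over the 12058 genes that reached 1 RPKM in 3 libraries or more. Intervals are 95% intervals of that model. Of the 8 genes, 5 passed this filter (Ahr, Arnt, Tiparp, Cyp1a1 and Cyp1a2), and Ahrr, Cyp1b1 and Aldh3a1 did not.

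The promoters of the P450 neighbours and of the 2 feedback genes are shown because their transcripts range here from among the most abundant to barely detected. The windows run from 250 bases before to 50 bases after the start of the gene, come from RefSeq on build GRCm38.p6, and were at hand for 6 of the 8 genes. Capitals mark the core GCGTG or, where it lies on the other strand, CACGC.
Cyp1a2, chr9:57683606-57683905, - strand: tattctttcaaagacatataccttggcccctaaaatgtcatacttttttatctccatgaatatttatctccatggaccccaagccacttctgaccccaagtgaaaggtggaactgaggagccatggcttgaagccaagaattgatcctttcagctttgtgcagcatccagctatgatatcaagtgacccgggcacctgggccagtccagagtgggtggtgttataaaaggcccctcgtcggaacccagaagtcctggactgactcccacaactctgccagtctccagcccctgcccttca
Cyp1a1, chr9:57697363-57697662, + strand: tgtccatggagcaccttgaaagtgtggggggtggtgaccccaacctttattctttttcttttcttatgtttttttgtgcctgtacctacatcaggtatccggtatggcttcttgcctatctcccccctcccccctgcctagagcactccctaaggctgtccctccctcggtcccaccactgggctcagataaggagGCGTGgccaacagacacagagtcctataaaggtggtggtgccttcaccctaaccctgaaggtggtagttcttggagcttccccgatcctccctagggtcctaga
Ahrr, chr13:74292282-74292581, - strand: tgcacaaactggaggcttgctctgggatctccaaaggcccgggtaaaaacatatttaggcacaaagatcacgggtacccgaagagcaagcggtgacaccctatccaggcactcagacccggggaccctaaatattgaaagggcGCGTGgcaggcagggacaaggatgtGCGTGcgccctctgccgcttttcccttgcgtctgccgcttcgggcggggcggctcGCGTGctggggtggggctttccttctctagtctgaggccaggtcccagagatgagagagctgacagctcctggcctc
Tiparp, chr3:65528197-65528496, + strand: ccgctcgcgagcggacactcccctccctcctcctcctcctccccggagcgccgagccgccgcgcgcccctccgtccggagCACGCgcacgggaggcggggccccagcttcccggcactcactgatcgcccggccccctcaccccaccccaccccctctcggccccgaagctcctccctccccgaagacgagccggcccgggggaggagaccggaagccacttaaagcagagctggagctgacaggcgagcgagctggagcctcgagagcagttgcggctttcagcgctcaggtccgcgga
Cyp1a1 and Cyp1a2 are neighbours on mouse chromosome 9 and are transcribed in opposite directions. The Cyp1a1 window held 1 core, which began 54 bases before the start. The Cyp1a2 window held 0, which says only that these letters are not in this window. Ahrr had 3 cores, and the one 27 bases before its start was part of the longer element TNGCGTG. Tiparp, Arnt and Cyp1b1 had 1 core each. Of 32851 windows of the same length, 32.4% held at least 1 core on either strand, 3.91% held 3 or more and 5.07% held the longer element on either strand. A match is a description and not a binding site.

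From Cyp1a2 to Cyp1b1 the mean levels of the members spanned more than any of these genes did between groups. Ahr and Arnt lay about as near to each other as the groups of either gene. Cyp1a2, which metabolizes caffeine, aromatic amines and oestrogens in hepatocytes near the central vein, had a mean of 389 RPKM over the 12 libraries (262 to 524 RPKM) and ranked 297 of 23909 genes. Ahr followed at 17.0 RPKM (8.77 to 25), then Arnt at 10.6 RPKM (7.83 to 15.2), whose range overlapped that of Ahr, and then Tiparp at 2.88 RPKM (1.08 to 3.84). Cyp1a1, the most inducible AHR target in many tissues, lay at 1.05 RPKM (0.686 to 1.68). The Tiparp and Cyp1a1 ranges overlapped because of the low Tiparp value of JAX 3. Per length, Cyp1a2 exceeded Cyp1a1 by 376 to 429 times in CoTAC, 182 to 434 times in CoJAX, 296 to 658 times in TAC and 318 to 536 times in JAX. These ratios are rough, because Cyp1a1 rested on few reads and the RPKM of Cyp1a2 moved with depth, as given below. They are not a comparison of the groups. Cyp1b1 lay at 0.243 RPKM (0 to 0.562). Ahrr was above 0 in 1 of 12 libraries and Aldh3a1 was listed at 0 in all 12.

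**Figure D1:**
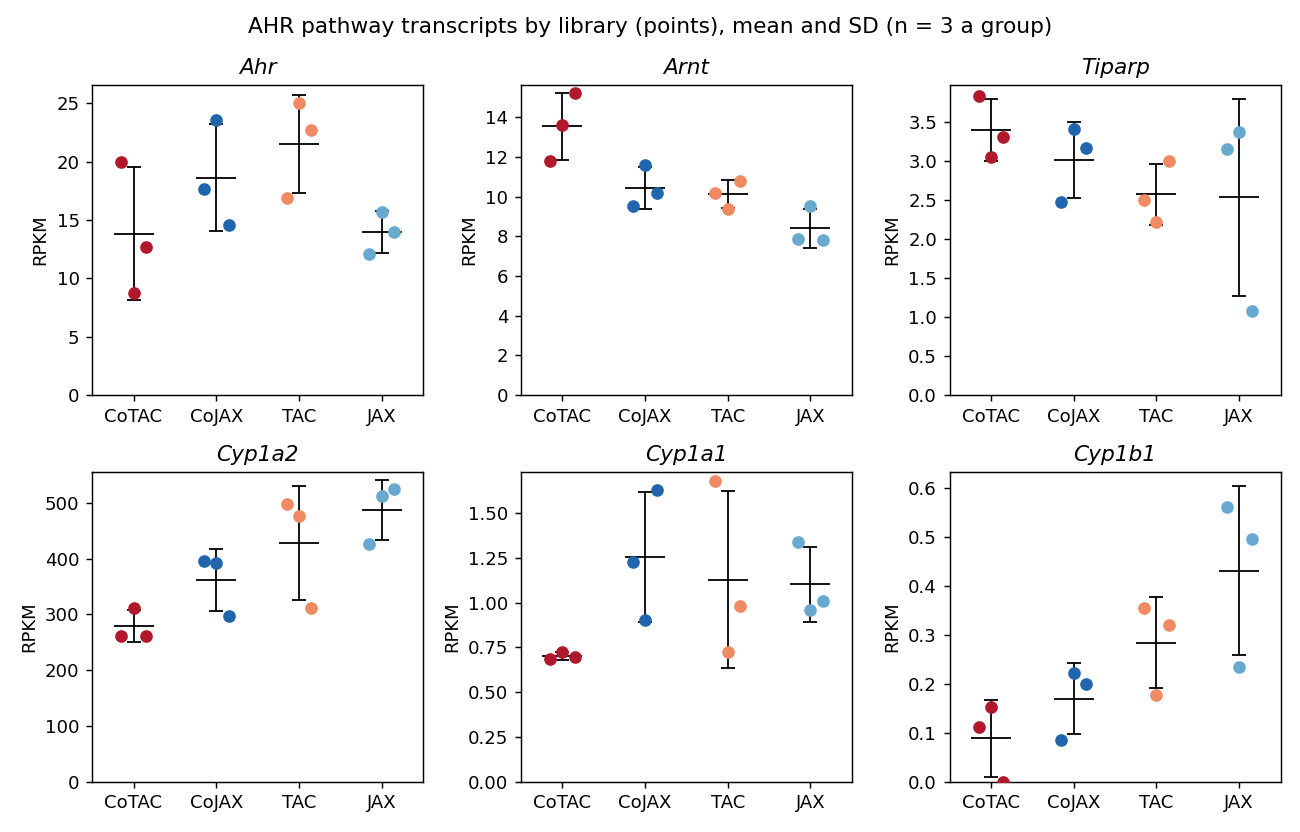
RPKM of 6 genes of the AHR pathway in each library (points), with the mean and SD of each group (n = 3), groups along the horizontal axis. The 3 CoTAC libraries lie below all CoJAX libraries for Cyp1a1 and above them for Arnt, where 19.0% of all genes did not overlap. No CoTAC library reached 1 RPKM for Cyp1a1. None of the 5 genes that met the filter passed the adjusted threshold in any comparison, and Cyp1b1 did not meet the filter.

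The number of reads behind the low values could be recovered, because the value of a gene in a library is a whole multiple of the worth of 1 read. Ahr rested on 122 to 456 reads per library and Tiparp on 7 to 55. Cyp1a1 rested on 4 to 16 reads in 11 libraries, and its value in CoTAC 3 was not a whole multiple (5.81 times the worth of 1 read). Cyp1b1 rested on 0 to 6 reads per library. Ahrr, the repressor that competes with AHR for ARNT, had a single read in the series, in JAX 3. In CoTAC, 0 Ahrr reads over the group allow a level of up to 0.0599 RPKM, against 0.0722 RPKM in CoJAX and 0.0849 RPKM in TAC (3 reads over the group, counting error only). Arnt and Cyp1a2 values could not be resolved into reads in this way.

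**Figure D2:**
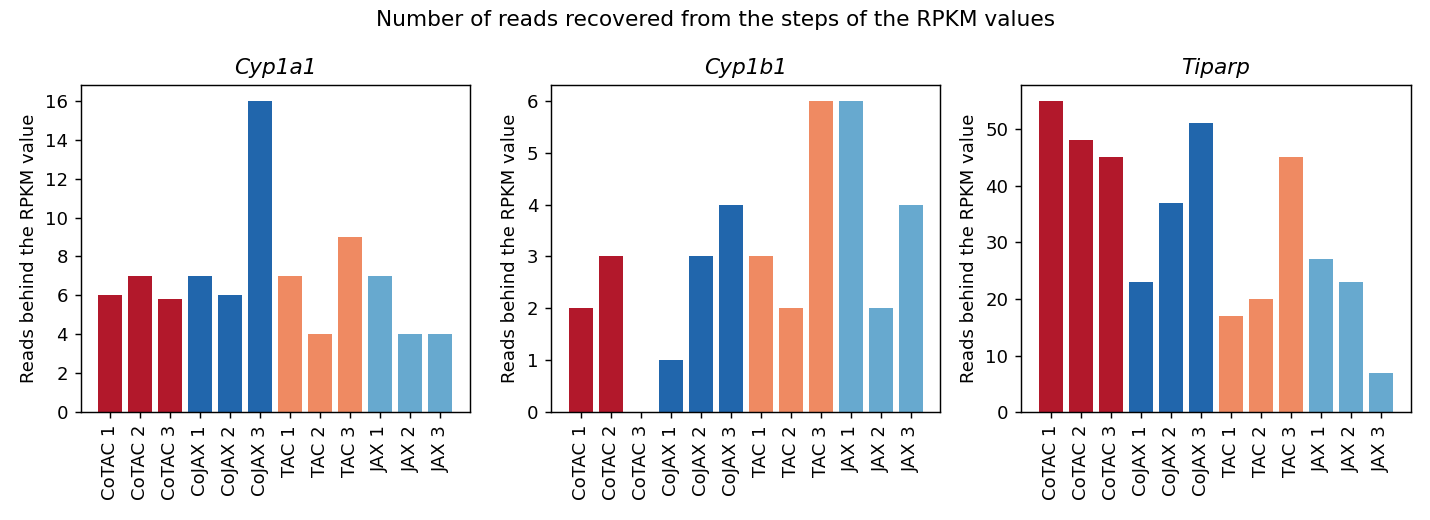
Reads behind the RPKM value of Cyp1a1, Cyp1b1 and Tiparp in each of the 12 libraries, in linear bars coloured by group. Cyp1a1 has 16 reads in CoJAX 3 and 4 to 9 in the others, Cyp1b1 has 6 at most, and Tiparp has 7 in JAX 3 and 55 in CoTAC 1.

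None of the 5 measured genes passed the adjusted threshold of 0.05 in any of the 6 comparisons made. In TAC against JAX 0 of 5 passed, where 4.09% of all genes did, and 1 of 5 (Ahr) had an unadjusted p under 0.05, where 26.2% of all genes did. In CoJAX against JAX 0 of 5 passed, with 24.1% of all genes, and 1 of 5 (Cyp1a2) was under 0.05 unadjusted, with 38.8%. In CoTAC against TAC 0 of 5 passed, with 0.647% of all genes, and 3 of 5 (Ahr, Arnt and Cyp1a2) were under 0.05 unadjusted, with 24.6%. In CoTAC against CoJAX 0 of 5 passed, with 0.0663% of all genes, and 1 of 5 (Arnt) was under 0.05 unadjusted, with 10.8%. For the average of the 2 vendor differences 0 of 5 passed, with 3.47% of all genes, and 1 of 5 (Arnt) was under 0.05 unadjusted, with 26.8%. For the interaction, the CoTAC and CoJAX difference minus the TAC and JAX difference, 0 of 5 passed, with 0.0% of all genes, and 1 of 5 (Ahr) was under 0.05 unadjusted, with 11.3%. Comparisons that share a group are not independent of each other.

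**Figure D3:**
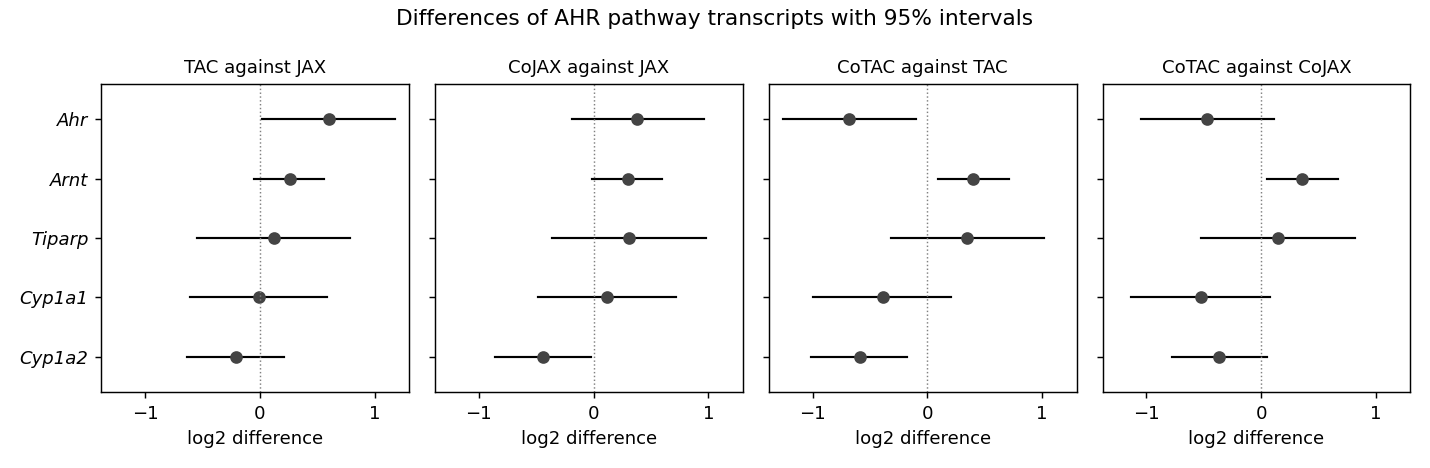
Log2 differences of 5 genes of the AHR pathway in the 4 comparisons of groups, with 95% intervals of the limma-trend model as lines. The intervals are about as wide for Ahr, Cyp1a1 and Tiparp, narrowest for Arnt, and the largest differences are those of Ahr, at -0.68 in CoTAC against TAC and 0.60 in TAC against JAX.

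Ahr, the receptor, was listed at 20.0, 8.77 and 12.7 RPKM in CoTAC, 17.7, 23.6 and 14.6 RPKM in CoJAX, 16.9, 25 and 22.7 RPKM in TAC and 12.1, 15.7 and 14.0 RPKM in JAX. Every TAC library lay above every JAX library, and CoTAC 2 lay below every library of the other groups, while CoTAC 1 and CoTAC 3 lay within their range. Groups that did not overlap were found for 26.2% of all genes in TAC against JAX. The difference was 0.60 ± 0.27 between TAC and JAX (interval 0.02 to 1.18, adjusted p = 0.18) and 0.38 ± 0.27 between CoJAX and JAX (-0.19 to 0.96, adjusted p = 0.309). It was -0.68 ± 0.27 between CoTAC and TAC (-1.26 to -0.10, adjusted p = 0.161) and -0.47 ± 0.27 between CoTAC and CoJAX (-1.05 to 0.11, adjusted p = 0.532). Without CoTAC 2 these were -0.40 and -0.19, without CoTAC 1 they were -0.97 and -0.76, and without CoJAX 2 the CoTAC and CoJAX difference was -0.29 and the CoJAX and JAX difference 0.20. These signs give an interaction of -1.06 ± 0.38 (-1.88 to -0.24, adjusted p = 0.326), and 4.83% of all genes had a larger one in size. Summed over the 3 libraries of a group, Ahr had 800 reads in CoTAC, 879 in CoJAX, 912 in TAC and 405 in JAX. The exact Poisson interval of the summed reads was 12.5 to 15.2 RPKM in JAX, against 12.1 to 15.7 RPKM for its libraries. It was 12.7 to 14.7 RPKM in CoTAC (libraries 8.77 to 20.0), 16.9 to 19.3 RPKM in CoJAX (14.6 to 23.6) and 20.7 to 23.6 RPKM in TAC (16.9 to 25). The libraries spread beyond the interval in every group. An interval of a sum is narrower than that of 1 library, so the part of counting error in this spread was not tested.

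Arnt, the partner that AHR needs to bind DNA and that HIF-1α also uses, was listed at 11.8, 13.6 and 15.2 RPKM in CoTAC and at 9.53, 11.6 and 10.2 RPKM in CoJAX. It was at 10.2, 9.36 and 10.8 RPKM in TAC and at 7.84, 9.54 and 7.83 RPKM in JAX. The CoTAC libraries were the highest group, above all libraries of each other group, and JAX was the lowest, overlapping with TAC and CoJAX. The difference was 0.40 ± 0.14 between CoTAC and TAC (0.09 to 0.71, adjusted p = 0.138) and 0.36 ± 0.14 between CoTAC and CoJAX (0.05 to 0.67, adjusted p = 0.419). Groups that did not overlap were found for 26.4% and 19.0% of all genes in these comparisons. Between TAC and JAX it was 0.26 ± 0.14 (-0.05 to 0.56, adjusted p = 0.267), between CoJAX and JAX 0.30 ± 0.14 (-0.01 to 0.60, adjusted p = 0.142), and for the average of the 2 vendor differences 0.31 ± 0.10 (0.09 to 0.52, adjusted p = 0.0913). The CoTAC libraries were also among the deepest. With relative depth as a covariate the CoTAC and TAC difference was 0.38 ± 0.17 (adjusted p = 0.462) and the vendor average 0.29 ± 0.12 (adjusted p = 0.242).

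Cyp1a2 was listed at 262, 312 and 262 RPKM in CoTAC, 395, 392 and 297 RPKM in CoJAX, 498, 477 and 311 RPKM in TAC and 426, 513 and 524 RPKM in JAX. The CoJAX libraries lay below all JAX libraries (groups did not overlap for 43.7% of all genes there), while CoTAC and TAC met at 312 and 311 RPKM. The difference was -0.59 ± 0.19 between CoTAC and TAC (-1.01 to -0.18, adjusted p = 0.118), -0.44 ± 0.19 between CoJAX and JAX (-0.86 to -0.02, adjusted p = 0.113), -0.37 ± 0.19 between CoTAC and CoJAX (-0.78 to 0.05, adjusted p = 0.503) and -0.21 ± 0.19 between TAC and JAX (-0.63 to 0.21, adjusted p = 0.512). Without TAC 3 the CoTAC and TAC difference was -0.81 ± 0.16 (adjusted p = 0.0241) and the CoJAX and JAX difference -0.44 ± 0.14 (adjusted p = 0.0404), both past the threshold. In that fit 1530 of all 12058 genes passed in CoTAC against TAC (78 with all libraries) and 3135 in CoJAX against JAX (2911 with all libraries). TAC 3 was the deepest TAC library (relative depth 1.754, against 0.7943 for TAC 1 and 1.0541 for TAC 2), and the CoTAC libraries lay at 1.59 to 1.84.

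The level of Cyp1a2 moved with depth, as did that of Alb, the albumin gene of hepatocytes. Alb was at 519 to 602 RPKM in CoTAC, 512 to 884 RPKM in CoJAX, 549 to 1140 RPKM in TAC and 914 to 1150 RPKM in JAX, and its estimated coverage was 1.786 to 1.988 reads per base in every library, whatever the depth. The RPKM of Alb was thus nearly inverse to depth and cannot be read as an amount of RNA apart from depth, a limit that may also touch other abundant transcripts, Cyp1a2, Cyp2e1 and the summed hepatocyte markers among them. Correcting for a ceiling of 2 reads per base left Cyp1a2 at -0.60 ± 0.17 in CoTAC against TAC (adjusted p = 0.0969) and at -0.33 ± 0.17 in CoJAX against JAX (adjusted p = 0.181). The hepatocyte markers did not move together. In CoJAX against JAX Cps1 (0.82 ± 0.16, adjusted p = 0.007) and Hnf4a (0.57 ± 0.14, adjusted p = 0.0147) were higher and Ttr was lower (-0.75 ± 0.25, adjusted p = 0.0485), and Alb was at -0.58 ± 0.27 (adjusted p = 0.129). The Ttr call held in 3 of the 12 fits that leave out a library. With relative depth as a covariate Ttr was at -0.12 ± 0.07 (adjusted p = 0.336), Hnf4a at 0.58 ± 0.17 (adjusted p = 0.0871) and Cps1 at 0.97 ± 0.16 (adjusted p = 0.0422). As a share of Alb in the same library, Cyp1a2 was 45.3%, 60.1% and 43.6% in CoTAC, 44.7%, 51.6% and 58.0% in CoJAX, 43.5%, 52.3% and 56.7% in TAC and 46.6%, 47.2% and 45.5% in JAX. With Alb coverage nearly constant, these shares follow the coverage of Cyp1a2 itself, which was 0.813 to 1.18 reads per base, and they are no test of its level. Multiplied by relative depth, Cyp1a2 was 438, 574 and 417 in CoTAC, 430, 498 and 557 in CoJAX, 396, 503 and 546 in TAC and 426, 410 and 397 in JAX. On that scale every CoJAX library lay above every JAX library, opposite to the order in RPKM (exact permutation p = 0.1, two-sided, the smallest that 3 libraries against 3 can give), and CoTAC and TAC overlapped (exact permutation p = 1.0). This product follows the number of Cyp1a2 reads, as its coverage does. Every CoJAX library was also deeper than every JAX library (relative depth 1.0882 to 1.8788 against 0.7581 to 1.0). The order on this scale is thus no test of the level either. With relative depth as a covariate the Cyp1a2 difference was -0.26 ± 0.11 between CoTAC and TAC (adjusted p = 0.448) and -0.03 ± 0.12 between CoJAX and JAX (adjusted p = 0.894).

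**Figure D4:**
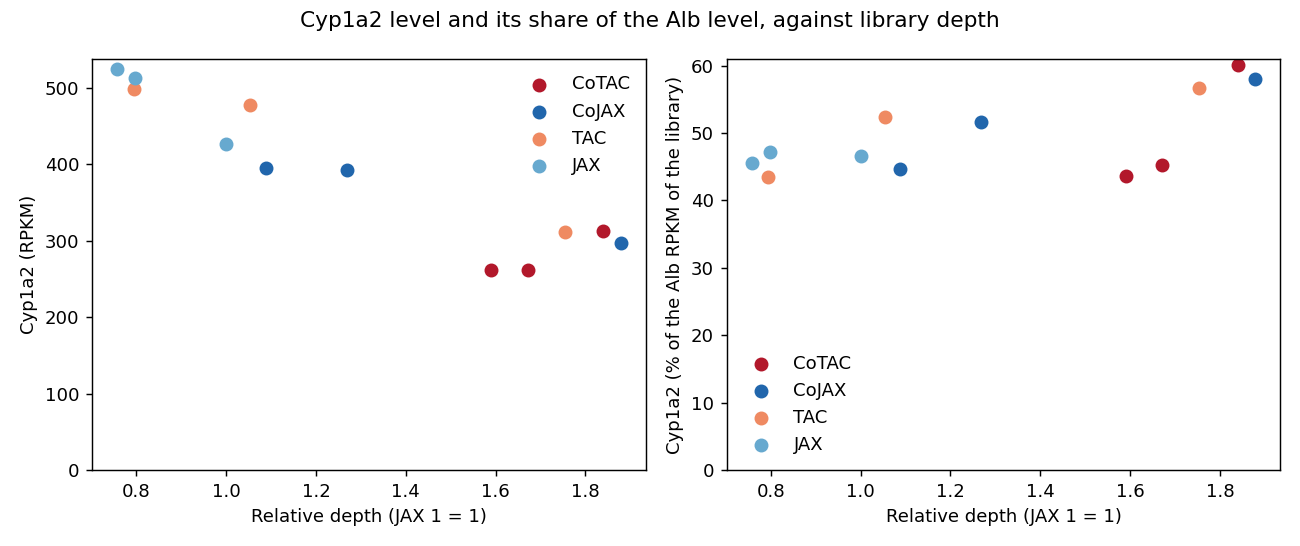
Cyp1a2 in RPKM (left) and as a percent of Alb within each library (right), against the relative depth of the library (JAX 1 set to 1), 1 point per library coloured by group. RPKM is 524 in JAX 3, the shallowest library, and 297 in CoJAX 3, the deepest, while the share of Alb, whose coverage was nearly constant, lies between 43.5% and 60.1%.

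Cyp1a1, the P450 that oxidizes polycyclic aromatic hydrocarbons and clears AHR ligands, was at 0.686, 0.727 and 0.698 RPKM in CoTAC and at 1.23, 0.903 and 1.63 RPKM in CoJAX. It was at 1.68, 0.725 and 0.981 RPKM in TAC and at 1.34, 0.957 and 1.01 RPKM in JAX. The CoTAC libraries lay together at the low end and below every CoJAX library (19.0% of all genes did not overlap there), while TAC 2 lay among them. Cyp1a1 reached 1 RPKM in 5 libraries, none of them from CoTAC. It thus met the filter of 1 RPKM in 3 libraries only through the groups where it was higher, and the low place of CoTAC gives no support of its own. The difference between CoTAC and CoJAX was -0.52 ± 0.28 (-1.13 to 0.08, adjusted p = 0.506) and between CoTAC and TAC -0.39 ± 0.28 (-1.0 to 0.21, adjusted p = 0.383), or -0.16 without TAC 1. Between CoJAX and JAX it was 0.12 ± 0.28 (-0.48 to 0.72, adjusted p = 0.783) and between TAC and JAX -0.01 ± 0.28 (-0.61 to 0.59, adjusted p = 0.99). The summed reads were 29 in CoJAX, 20 in TAC and 15 in JAX, which as a level give 1.31 RPKM (0.876 to 1.88), 1.06 RPKM (0.648 to 1.64) and 1.12 RPKM (0.628 to 1.85) with exact Poisson intervals that cover counting error only. No sum or interval was formed for CoTAC, because the CoTAC 3 value was not a whole multiple. The CoTAC libraries stood at 6, 7 and 5.81 times the worth of 1 read. Whether the low CoTAC values lie within counting error was not tested. The interval between CoJAX and JAX reached from 0.715-fold to 1.65-fold on the scale of RPKM + 0.5.

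Tiparp, a ribosyltransferase that AHR induces and that limits AHR, was at 3.84, 3.05 and 3.31 RPKM in CoTAC, 2.47, 3.41 and 3.17 RPKM in CoJAX, 2.50, 2.22 and 3.0 RPKM in TAC and 3.16, 3.37 and 1.08 RPKM in JAX. The CoTAC libraries lay above the TAC libraries (26.4% of all genes did not overlap there), and JAX 3 lay below every other library, on 7 reads. The difference was 0.35 ± 0.31 between CoTAC and TAC (-0.32 to 1.02, adjusted p = 0.496) and 0.31 ± 0.31 between CoJAX and JAX (-0.36 to 0.98, adjusted p = 0.486). Between CoTAC and CoJAX it was 0.15 ± 0.31 (adjusted p = 0.858). Between TAC and JAX it was 0.12 ± 0.31 (adjusted p = 0.844), and without JAX 3 its sign turned, at -0.30.

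Cyp1b1, the family member of non-parenchymal cells, was at 0.112, 0.153 and 0 RPKM in CoTAC, 0.0861, 0.222 and 0.200 RPKM in CoJAX, 0.354, 0.178 and 0.321 RPKM in TAC and 0.562, 0.235 and 0.495 RPKM in JAX. CoJAX lay below JAX and CoTAC below TAC without overlap, CoTAC overlapped with CoJAX, and TAC with JAX. Of the 12058 genes tested, which do not include Cyp1b1, 43.7% did not overlap between CoJAX and JAX and 26.4% between CoTAC and TAC. The nearest libraries of CoJAX and JAX held 3 reads (CoJAX 2) and 2 reads (JAX 2). The groups held 5 reads in CoTAC, 8 in CoJAX, 11 in TAC and 12 in JAX, or 0.0919 RPKM (0.0298 to 0.214), 0.177 RPKM (0.0764 to 0.349), 0.286 RPKM (0.143 to 0.512) and 0.440 RPKM (0.227 to 0.768) with exact Poisson intervals. The exact permutation p was 0.1 for CoTAC against TAC and for CoJAX against JAX, the smallest that 3 libraries against 3 can give, and 0.3 for CoTAC against CoJAX and for TAC against JAX. With no filter on low values limma-trend gave -0.42 ± 0.18 for CoTAC against TAC (adjusted p = 0.245) and -0.46 ± 0.18 for CoJAX against JAX (adjusted p = 0.106). Markers of cells that can express Cyp1b1 are given beside these values. Of the 10 stellate cell and fibroblast markers 1 was lower in CoJAX against JAX and 0 passed with limma-trend in CoTAC against TAC (4 and 2 under 0.05 unadjusted), and of the 9 endothelial markers 0 passed in either (1 and 6 under 0.05 unadjusted). Of all genes 24.1% passed in CoJAX against JAX (11.5% were lower), and 38.8% were under 0.05 unadjusted. In CoTAC against TAC 0.647% of all genes passed and 24.6% were under 0.05 unadjusted. The 10 stellate cell and fibroblast markers summed to 124 to 215 RPKM in CoTAC, 207 to 322 RPKM in CoJAX, 175 to 311 RPKM in TAC and 355 to 399 RPKM in JAX. The 9 endothelial markers summed to 55.6 to 152 RPKM in CoTAC, 144 to 203 RPKM in CoJAX, 132 to 183 RPKM in TAC and 171 to 258 RPKM in JAX. Their part in the Cyp1b1 values was not tested, and in whole liver fewer cells of a type and less RNA per cell cannot be told apart.

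Other known AHR targets were examined as a list of 18 genes, of which 16 were measured. This list, the other pathway lists and the cell type markers were chosen with earlier results of these data known. Their counts are a description and no test of a list as a set. For the average of the 2 vendor differences 4 of the 16 were lower and 0 higher, where 1.93% of all genes were lower and 1.53% higher. Over all genes that was 185 higher and 233 lower, and 326 higher and 270 lower under quantile normalization. The median difference of the list was -0.17, against 0.008 over all genes. Nqo1, a quinone reductase induced through AHR and NRF2, was at 4.93, 5.59 and 4.10 RPKM in CoTAC, 7.57, 8.38 and 8.04 RPKM in CoJAX, 6.48, 7.49 and 7.83 RPKM in TAC and 13.7, 8.59 and 12.7 RPKM in JAX. Each Taconic group lay below the Jackson group of the same housing without overlap. Of all genes 26.2% did not overlap in TAC against JAX and 19.0% in CoTAC against CoJAX. The average vendor difference of Nqo1 was -0.65 ± 0.13 (adjusted p = 0.0304). Gsta2, a glutathione transferase, averaged 17.9 ± 8.67 RPKM in CoTAC, 53.9 ± 6.80 RPKM in CoJAX, 33.9 ± 3.73 RPKM in TAC and 103 ± 20.7 RPKM in JAX (SD, n = 3), with an average vendor difference of -1.62 ± 0.20 (adjusted p = 0.00414). Its CoTAC values were all below the TAC values, and those below all CoJAX and JAX values. Over all genes 26.4% did not overlap in CoTAC against TAC and 26.2% in TAC against JAX, and the share for TAC against CoJAX was not computed. The fatty acid transporter Cd36 lay between 4.21 and 10.7 RPKM in CoTAC, against 12.7 to 22.6 RPKM in CoJAX, and between 7.56 and 13.1 RPKM in TAC, against 15.1 to 26.9 RPKM in JAX (-1.27 ± 0.24, adjusted p = 0.0263). Htatip2, an oxidoreductase, lay between 50.7 and 67.4 RPKM in CoTAC, against 61.5 to 96.7 RPKM in CoJAX, and between 62.3 and 85.9 RPKM in TAC, against 130 to 140 RPKM in JAX (-0.64 ± 0.12, adjusted p = 0.0263). Some markers of other cells also differed for the vendor average. Of 8 measured Kupffer cell and macrophage markers 0 passed with limma-trend and the median was 0.03. Of 5 measured cholangiocyte markers 0 passed and the median was -0.23. Of the 9 endothelial markers, cells that also express Cd36, 1 was lower (Stab1, -0.67 ± 0.15, adjusted p = 0.0426) and the median was -0.60, and of the 10 stellate cell and fibroblast markers 1 was lower (Ecm1, -0.88 ± 0.17, adjusted p = 0.0284) and the median was -0.55. The Stab1 call held in 2 and the Ecm1 call in 5 of the 12 fits that leave out a library, and neither passed with relative depth as a covariate (adjusted p = 0.0873 for Stab1 and 0.102 for Ecm1). Of 8 leukocyte markers 4 were measured, and of these the B cell gene Cd79a was lower (-1.5 ± 0.24, adjusted p = 0.0133). This call was lost without CoJAX 1 (adjusted p = 0.051) and kept with depth (adjusted p = 0.0156). Cd79a lay at 1.55 to 2.89 RPKM in JAX and 1.3 to 1.51 RPKM in CoJAX, against 0 to 0.705 RPKM in TAC and 0.247 to 0.448 RPKM in CoTAC. It thus passed the filter of 1 RPKM in 3 libraries only through the Jackson groups, where it was high, and its call gives no support of its own. The part of these other cells in the differences was not tested. Gsta2 shares reads with near-identical copies, and these genes also answer to NRF2, CAR or PPAR receptors, so the list does not measure AHR alone. With relative depth as a covariate Gsta2 (-1.63 ± 0.25, adjusted p = 0.0205) and Cd36 (-1.56 ± 0.24, adjusted p = 0.023) passed and Nqo1 (-0.74 ± 0.15, adjusted p = 0.052) and Htatip2 (-0.51 ± 0.12, adjusted p = 0.0954) did not. Gsta2 passed without any one library. Nqo1 did not pass without JAX 1, JAX 3, TAC 2, TAC 3, CoJAX 1, CoJAX 3, CoTAC 1 or CoTAC 3 (adjusted p = 0.0541 to 0.0761), Cd36 without JAX 2, TAC 2, CoJAX 1, CoJAX 3, CoTAC 1 or CoTAC 3 (adjusted p = 0.0547 to 0.0761), and Htatip2 without JAX 2, JAX 3, TAC 2, TAC 3, CoJAX 1, CoJAX 3 or CoTAC 1 (adjusted p = 0.0541 to 0.0701).

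In the single comparisons the same list had 1 gene higher and 2 lower in TAC against JAX, where 2.38% and 1.71% of all genes were, and 3 higher and 4 lower in CoJAX against JAX, where 12.7% and 11.5% were. In TAC against JAX these were Ugt1a6a (0.91 ± 0.19, adjusted p = 0.0323), Gsta2 (-1.57 ± 0.29, adjusted p = 0.0263) and Htatip2 (-0.86 ± 0.17, adjusted p = 0.0282). None of the 3 calls held without JAX 2, JAX 3, TAC 2 or TAC 3, nor those of Gsta2 and Htatip2 without JAX 1 (adjusted p = 0.0551 to 0.13), and none passed with relative depth as a covariate (adjusted p = 0.0563 to 0.0878). With limma-trend 0 of 16 passed in CoTAC against TAC, in CoTAC against CoJAX and for the interaction, with 5, 5 and 4 under 0.05 unadjusted. Over all genes 0.647%, 0.0663% and 0.0% passed there, and 24.6%, 10.8% and 11.3% were under 0.05 unadjusted. The glucuronosyltransferases of the Ugt1a locus moved apart in CoJAX against JAX. Ugt1a9 was higher (1.26 ± 0.25, adjusted p = 0.00775), as was Ugt1a6a (0.88 ± 0.19, adjusted p = 0.0114), and Ugt1a6b was lower (-1.25 ± 0.28, adjusted p = 0.0115). These genes share their last exons, so reads of one can be counted for another. Htatip2 was lower in CoJAX than in JAX by -0.80 ± 0.17 (adjusted p = 0.00967), and these 4 calls were each kept without any one library. The other 3 genes called there were Fmo2 (higher), Gsta2 and Pmm1 (both lower), and none of these was called without JAX 1, JAX 2, JAX 3, CoJAX 1 or CoJAX 2, nor Fmo2 without CoJAX 3 or CoTAC 2, Gsta2 without CoJAX 3 or Pmm1 without CoTAC 1. When depth was a covariate 0 of the 7 passed in CoJAX against JAX, with adjusted p = 0.0906 to 0.315. Their differences then were -0.55 ± 0.19 for Htatip2, -0.56 ± 0.16 for Ugt1a6b, 0.71 ± 0.25 for Ugt1a6a, 0.95 ± 0.31 for Ugt1a9, 0.73 ± 0.42 for Fmo2, -0.93 ± 0.39 for Gsta2 and -1.09 ± 0.34 for Pmm1, so that of Ugt1a6b was the most reduced of the 7 and those of Gsta2 and Pmm1 were not reduced.

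**Figure D5:**
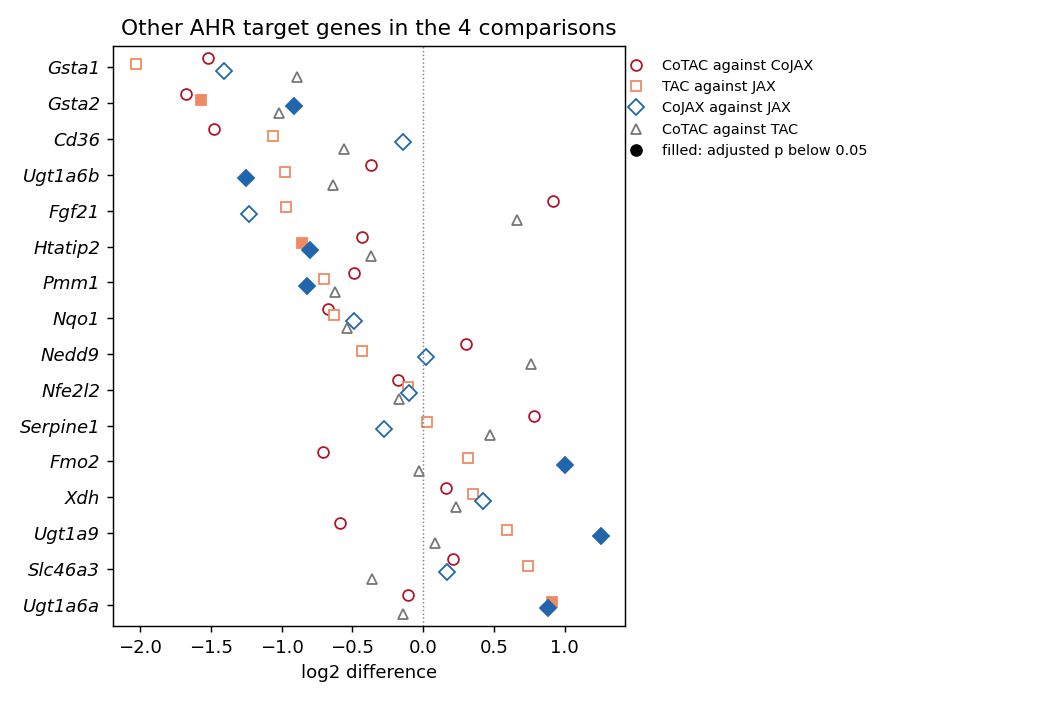
Log2 differences of the 16 measured genes of the list of other AHR targets in the 4 comparisons of groups, ordered by TAC against JAX, with filled symbols for genes past the adjusted threshold. Filled symbols occur for TAC against JAX and CoJAX against JAX and lie on both sides of 0.

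The route from tryptophan to kynurenine supplies AHR ligands inside the body. Of 10 measured genes of this route 2 were higher and 0 lower in TAC against JAX, where 2.38% and 1.71% of all genes were. In CoJAX against JAX 3 were higher and 1 was lower, where 12.7% and 11.5% were. With limma-trend 0 passed in CoTAC against TAC, in CoTAC against CoJAX, for the vendor average and for the interaction (3, 1, 5 and 5 under 0.05 unadjusted). Over all genes 0.647%, 0.0663%, 3.47% and 0.0% passed in these, and 24.6%, 10.8%, 26.8% and 11.3% were under 0.05 unadjusted. Acmsd, the decarboxylase that steers the route away from NAD, was at 43.4, 25.4 and 37.2 RPKM in CoTAC, 33.0, 31.6 and 45.8 RPKM in CoJAX, 30.5, 58.9 and 23.1 RPKM in TAC and 12.5, 16.5 and 9.29 RPKM in JAX. JAX stood below all other groups. Over all genes 43.7% did not overlap in CoJAX against JAX and 26.2% in TAC against JAX, and the share for CoTAC against JAX was not computed. The difference was 1.5 ± 0.32 between CoJAX and JAX (adjusted p = 0.00986), kept without any one library, and 1.44 ± 0.32 between TAC and JAX (adjusted p = 0.0367). The TAC and JAX call was lost without any one of JAX 1, JAX 2, JAX 3, TAC 2, TAC 3, CoJAX 1 or CoTAC 3 (adjusted p = 0.0518 to 0.121). With relative depth as a covariate both were as large and did not pass, at 1.61 ± 0.44 (adjusted p = 0.0829) and 1.5 ± 0.38 (adjusted p = 0.0754). Kynu, the kynureninase, was higher in TAC than in JAX (0.52 ± 0.13, adjusted p = 0.0493, kept only without TAC 1) and in CoJAX than in JAX (0.40 ± 0.13, adjusted p = 0.0453). The dioxygenase Ido2 was higher in CoJAX (0.47 ± 0.14, adjusted p = 0.0289) and the aminotransferase Ccbl1, which makes kynurenic acid, was lower there (-0.38 ± 0.11, adjusted p = 0.032). In CoJAX against JAX the Kynu call was lost without JAX 1, JAX 2, JAX 3, CoJAX 1, CoJAX 3, CoTAC 1, CoTAC 2 or CoTAC 3, that of Ido2 without JAX 1, JAX 2, JAX 3, CoJAX 2 or CoJAX 3, and that of Ccbl1 without JAX 2, JAX 3, CoJAX 1, CoJAX 2 or CoJAX 3 (adjusted p = 0.0509 to 0.141). None of the 3 passed there with relative depth as a covariate, at 0.52 ± 0.15 for Kynu (adjusted p = 0.0931), 0.45 ± 0.18 for Ido2 (adjusted p = 0.17) and -0.19 ± 0.09 for Ccbl1 (adjusted p = 0.256), nor did Kynu in TAC against JAX (0.59 ± 0.13, adjusted p = 0.0635). The genes Ido1 and Il4i1, which make AHR ligands in immune cells, were listed at 0 in all 12 libraries.

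Among 11 measured genes of the AHR complex and its coactivators 3 were higher and 1 was lower in CoJAX against JAX, where 12.7% and 11.5% of all genes were, and 0 passed with limma-trend in the other 5 comparisons. The coactivator Ncoa2 lay between 9.50 and 13.5 RPKM in CoJAX, against 5.09 to 6.52 RPKM in JAX (0.90 ± 0.19, adjusted p = 0.01, kept without any one library), and its difference with relative depth as a covariate was 0.72 ± 0.24 (adjusted p = 0.121). The ubiquitin ligase scaffold Cul4b (0.48 ± 0.13, adjusted p = 0.0216) and the corepressor Nrip1 (1.27 ± 0.42, adjusted p = 0.047) were higher. The ubiquitin-like Nedd8 was lower (-0.73 ± 0.19, adjusted p = 0.0181). Nrip1 stayed at or below 0.845 RPKM among the JAX libraries, with 0 as the lowest value, and at or below 0.73 RPKM among those of TAC. The CoJAX libraries spanned 0.981 to 2.61 RPKM, while the lowest CoTAC value was 1.45 RPKM. Nrip1 thus met the filter of 1 RPKM in 3 libraries only through the cohoused groups, where it was high. Its call therefore gives no support of its own. Cul4b was not called without JAX 1, JAX 2, CoJAX 1 or CoJAX 3, Nedd8 without JAX 2, JAX 3, CoJAX 2 or CoJAX 3, and Nrip1 was called only without CoJAX 1 or CoTAC 2 (adjusted p = 0.0506 to 0.155 otherwise). Depth as a covariate ended these 3 calls, at 0.49 ± 0.17 for Cul4b (adjusted p = 0.127), 1.27 ± 0.57 for Nrip1 (adjusted p = 0.206) and -0.32 ± 0.11 for Nedd8 (adjusted p = 0.121), and Nedd8 was at -0.40 ± 0.08 under quantile normalization (adjusted p = 0.0066). Of 11 genes of the hepatocytes near the central vein, where Cyp1a2 is made, Lect2, a secreted hepatokine, was lower in CoJAX than in JAX (-0.74 ± 0.16, adjusted p = 0.0104) and 0 passed with limma-trend in the other 5 comparisons. Among them Cyp2e1, an ethanol-oxidizing P450, averaged 509 ± 21.6 RPKM in CoTAC, 638 ± 145 RPKM in CoJAX, 711 ± 191 RPKM in TAC and 856 ± 99.8 RPKM in JAX (SD, n = 3), in the same order as Cyp1a2. Its share of Alb was 77.4% to 93.4% over the 12 libraries. Glul, the glutamine synthetase of the innermost hepatocytes, averaged 280 ± 13.4 RPKM in CoTAC, 297 ± 61.8 RPKM in CoJAX, 336 ± 54.4 RPKM in TAC and 340 ± 19.7 RPKM in JAX. Of 8 periportal genes Pigr was higher in CoJAX than in JAX (0.42 ± 0.12, adjusted p = 0.0297, not called without JAX 1, JAX 2, JAX 3, CoJAX 1 or CoJAX 2), and of 6 genes that supply P450 enzymes with electrons and haem Fech, the ferrochelatase, was (0.66 ± 0.14, adjusted p = 0.00866, kept without any one library). In both lists 0 passed with limma-trend in the other 5 comparisons. These counts of 1 gene in 11, 8 and 6 lie below the 24.1% of all genes called in CoJAX against JAX. Once depth was a covariate Lect2 (-0.54 ± 0.17, adjusted p = 0.104), Pigr (0.55 ± 0.11, adjusted p = 0.0522) and Fech (0.57 ± 0.17, adjusted p = 0.0942) did not pass, and under quantile normalization Lect2 was at -0.45 ± 0.14 (adjusted p = 0.0366) and Pigr at 0.66 ± 0.11 (adjusted p = 0.00462).

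The genes whose pattern over the 12 libraries was most like that of each member were found by Pearson's r of log2(RPKM + 0.5) among 11206 genes, as a description. Cyp1a2 was most like Prdx6 (r = 0.99), Car3 (0.976) and Asgr2 (0.975), all abundant liver transcripts of 220 to 637 RPKM. Arnt was most like Gltscr1l (0.958), Suz12 (0.928) and Dot1l (0.926), and Tiparp like Mrm1 (0.893), Msl2 (0.874) and Zfp426 (0.87). Cyp1a1 was most like Calr3 (0.865), Akirin2 (0.854) and Coro2a (0.839), and Ahr like Ext2 (0.845), Slc39a4 (0.839) and Ell2 (0.83). The points share library and depth, and the best of so many genes reaches a high r by its number alone.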

How the data were processed

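Liver RNA of 12 libraries was sequenced after TRIzol extraction and poly(A) selection, per the labels' protocols. The authors deposited 1 table of RPKM, the unit given by its name. The submitters' processing notes name Bowtie 1.0.0, Cuffdiff 2.1.1 and build mm9 but give them no role. What annotation, filters and strand setting were used is not given in the sources used here, nor how duplicates were treated. Of 23936 rows, 27 carried a date number in place of a symbol (0.163% to 0.204% of a library's RPKM) and were left out. No pair of libraries was identical (Spearman 0.942 to 0.972 over genes above 0).

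Relative depth and whole reads were computed from the steps between RPKM values under 0.6 (whole within 0.02 reads). Absolute depth also rests on GENCODE transcript lengths of another build and is an estimate. Low depth limits genes of few reads, and intervals cover counting error only. Log2(RPKM + 0.5) values, which understate changes of low genes, were fitted with limma 3.58.1 (R 4.3.3) without a block, and exact permutation tests used scipy 1.17.1. The scripts were tested on simulated data. The 8 members, the 6 further pathway lists and the cell type markers were chosen with earlier results of these data known. Genes named are the members, Nqo1, Cyp2e1, Glul and Alb, up to 4 called genes of each pathway list per comparison by smallest p, and the 3 genes most like each member; 1 further gene of this rule is not reported here. Stab1, Ecm1, Cd79a, Cps1, Hnf4a, Ttr, Fmo2 and Pmm1 were named after their values were seen. Promoters come from a RefSeq table on GRCm38.p6, not the build of the files, and their coordinates were not joined to the table of RPKM. Replicate numbers did not pair libraries. Alternatives were the pseudocount, the filter, scaling, depth, a ceiling correction, the block, the groups fitted and each library left out.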

Additional observations from a re-analysis of the deposited data

How the results depend on the processing

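The 30 differences of the 5 measured AHR genes were recomputed under 12 settings that leave out a library and 9 others. Of 620 values 2 passed the threshold, both for Cyp1a2 without TAC 3, so the count of members past it was 0 to 1 for CoJAX against JAX and for CoTAC against TAC over the fits that leave out a library. It was 0 under every other setting run. Without TAC 3, 3135 of all 12058 genes passed in CoJAX against JAX and 1530 in CoTAC against TAC. Signs turned for 8 of the 30 differences. Under quantile normalization Cyp1a1 was 0.11 and Cyp1a2 0.049 in TAC against JAX, Ahr -0.0024 for the vendor average and Tiparp -0.091 for the interaction. With relative depth as a covariate Cyp1a2 was 0.036 and Tiparp -0.041 in TAC against JAX, and Tiparp -0.0003 for the vendor average. Over the fits that leave out a library, TAC against JAX ranged from -0.24 to 0.18 for Cyp1a1, from -0.33 to 0.0056 for Cyp1a2 and from -0.30 to 0.35 for Tiparp. CoJAX against JAX ranged from -0.032 to 0.27 for Cyp1a1 and from -0.11 to 0.54 for Tiparp. The vendor average ranged from -0.083 to 0.20 for Ahr and from -0.072 to 0.25 for Tiparp, and the Tiparp interaction from -0.19 to 0.45. The causes were not tested. With the replicate number as a block 0 members passed in any comparison. Same-numbered libraries deviated together with r of -0.17 to 0.15, so the numbers mark no pairing.

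Counts over all genes, the background of the shares above, depended on the setting. TAC against JAX had 493 genes (13 with only its groups fitted, 810 under quantile normalization, 328 with no filter, 63 with the block, 132 with depth, and 11 to 2113 without a library). CoJAX against JAX had 2911 (39 with depth, 2309 with the block, 1264 to 3431 without a library), CoTAC against TAC 78 (1 with only its groups fitted, 6 with depth, 17 with the block, 2 to 1530), CoTAC against CoJAX 8 (1 with only its groups fitted, 5 with depth, 2 to 229), the vendor average 418 (72 with the block, 183 with no filter, 89 with depth, 44 to 1905) and the interaction 0 (2 with depth, 3 with no filter, 0 to 46). The single libraries behind the extremes were TAC 2 and TAC 1 for TAC against JAX, CoJAX 2 and TAC 1 for CoJAX against JAX, CoTAC 3 and TAC 3 for CoTAC against TAC, CoTAC 3 and CoTAC 2 for CoTAC against CoJAX, CoJAX 1 and TAC 1 for the vendor average, and TAC 1 for the interaction.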
